A study of Homo sapiens with 2 samples.

Results

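Adenosine deaminase and the enzymes around it that recycle purine nucleosides and bases were examined in HCC15 cells after knockdown of CTNNB1, the gene of beta-catenin. The set held 10 genes, namely ADA, PNP, ADK, NT5E, NT5C2, HPRT1, APRT, AMPD2, AMPD3 and DCK. It comprised every probe set whose platform gene symbol was exactly 1 of these names, which gave 18 of the 54675 probe sets on the array. The genes were chosen by the ratio of ADA in this same comparison, which was already known to be large, together with the enzymes that share its substrates and products. The ratios of the members are therefore given as a description.

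HCC15 is an established human lung cancer cell line that the labels call squamous, and the title of the series describes the tumour type as CTNNB1-mutated. The knockdown group was 1 culture transfected with an siRNA against CTNNB1, and it was set against 1 culture given a control siRNA, whose title carries the word Tax and whose target the labels do not state. The labels give 48 h as the time from transfection to collection, and total RNA was hybridised to 1 biotin-labelled expression array per group. Both groups therefore share the cell line, the transfection and the medium, and no sample without siRNA was analysed here. Each group was a single array, which leaves the differences without a replicate check, a test or a p-value.

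Cells make purine nucleotides either from small precursors or by salvage of nucleosides and bases. Adenosine sits at a branch point of salvage. ADK phosphorylates it to AMP, whereas ADA deaminates it, and deoxyadenosine with it, to inosine and deoxyinosine. PNP then splits inosine into hypoxanthine, and HPRT1 returns hypoxanthine to the nucleotide pool. Outside the cell, NT5E (CD73) produces adenosine from AMP, and the adenosine can signal through its own receptors. Inherited loss of ADA causes a severe combined immunodeficiency, in which lymphocytes are the cells most affected.

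The promoter windows of 3 members are shown, picked by their ratios in these same data. ADA and NT5E had the highest ratios of the set, and DCK, with a small log2 ratio of -0.15, was the member below 0. Each window runs from 250 bases before to 50 bases after the gene's start in RefSeq, on GRCh38.p14, and is printed along the gene's own strand. Capitals mark the GC box letters GGGCGG or their reverse complement CCGCCC, with overlapping matches counted separately. The ADA window lies at chr20:44651650-44651949 on the minus strand, the NT5E window at chr6:85449833-85450132 on the plus strand and the DCK window at chr4:70993399-70993698 on the plus strand.
ADA: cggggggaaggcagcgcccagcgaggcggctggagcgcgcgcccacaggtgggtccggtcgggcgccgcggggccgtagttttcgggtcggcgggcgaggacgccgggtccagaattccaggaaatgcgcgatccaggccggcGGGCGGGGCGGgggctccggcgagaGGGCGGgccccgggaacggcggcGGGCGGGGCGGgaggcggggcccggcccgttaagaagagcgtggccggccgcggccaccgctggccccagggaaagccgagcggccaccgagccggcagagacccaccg
NT5E: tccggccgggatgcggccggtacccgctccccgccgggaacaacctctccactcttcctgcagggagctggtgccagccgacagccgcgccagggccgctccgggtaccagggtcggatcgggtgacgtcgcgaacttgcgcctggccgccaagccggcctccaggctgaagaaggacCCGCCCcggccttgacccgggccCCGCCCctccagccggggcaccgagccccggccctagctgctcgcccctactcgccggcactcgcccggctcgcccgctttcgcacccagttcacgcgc
DCK: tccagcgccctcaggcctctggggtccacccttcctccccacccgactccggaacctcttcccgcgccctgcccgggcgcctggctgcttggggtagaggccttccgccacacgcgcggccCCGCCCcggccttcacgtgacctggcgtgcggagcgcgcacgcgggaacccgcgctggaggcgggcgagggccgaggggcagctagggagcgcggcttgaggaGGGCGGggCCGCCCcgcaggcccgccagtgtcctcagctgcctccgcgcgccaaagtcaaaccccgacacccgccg

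All 3 windows were rich in G and C, at 79.3% for ADA, 75% for NT5E and 76.3% for DCK, against a median of 58.7% over 35116 windows of the same length. ADA had 5 GC box matches, DCK 3 and NT5E 2, and at least 1 match was found in 45% of all windows. None of the 3 held the letters TATAAA or their reverse complement, which were found in 11.5% of all windows. The letters CTTTGA, a core that TCF/LEF factors can bind, and their reverse complement were in none of the 3 either, and were found in 12.9% of all windows. The 10 members together had 19 windows, because several have more than 1 start, and 1 of the 19, from AMPD2, held CTTTGA. These counts describe the letters in the windows. All 3 windows had GC boxes, as did 13 of the 19 windows of the members. The 3 genes were picked by their ratios, and the ratio of DCK was small. Comparing them therefore cannot show whether GC boxes go with the ratios, which was not tested.

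Knockdown was visible in the targeted transcript. At its brightest probe set CTNNB1 read 339 with CTNNB1 siRNA and 1224 with control siRNA, 27.7% of control. Its other probe sets read 51% and 91.3% of control. The arrays were not on a common scale, with median signals of 46.7 with CTNNB1 siRNA and 51.3 with control siRNA, but 2% trimmed means of 271 and 233. Across the 12531 genes that passed a filter on low signals, the median log2 ratio of CTNNB1 siRNA over control siRNA was 0.15. It grew with signal, from -0.24, -0.14 and -0.01 in the 3 dimmest deciles to 0.25, 0.28 and 0.27 in the 3 brightest. The pooled SD of log2 ratios between probe sets of 1 gene, 0.42, served as the measure of probe set error, and it does not cover variation between cultures. Among bright probe sets, with a mean signal of at least 209, that SD was 0.29.

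The labelled cell type was checked against markers. The epithelial keratin genes KRT8 (9259 with CTNNB1 siRNA and 8665 with control siRNA) and KRT18 (12013 and 11116) were bright, as was the squamous-associated SFN (5009 and 5472). The squamous keratin genes KRT5 (9.8 and 34.4) and KRT14 (6.7 and 25) were under the signal filter on both arrays. Of the 7 squamous markers with a probe set, 2 passed the filter, SFN and SOX2 (41.6 and 60.1). All 5 epithelial markers passed, among them CDH1 with 594 with CTNNB1 siRNA and 939 with control siRNA. Of 4 markers of the lung adenocarcinoma lineage, SFTPC (191 and 107), SFTPB (172 and 165) and NAPSA (65.6 and 56.2) passed, all of them dim beside the keratins, and NKX2-1 (7.6 and 20.5) did not. Leukocytes are rich in ADA, and of 5 leukocyte markers with a probe set PTPRC (3 and 25.9), CD3D (10.4 and 12.1) and CD3E (21.8 and 41.3) were under the filter, while MS4A1 (46.8 and 62.4) and CD14 (80.3 and 67.1) passed it. The summed signal of those 5 markers was 162 with CTNNB1 siRNA and 209 with control siRNA. Signals of different probe sets are not comparable as amounts, and a contribution of other cells to the ADA signal was not tested.

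**Figure D1:**
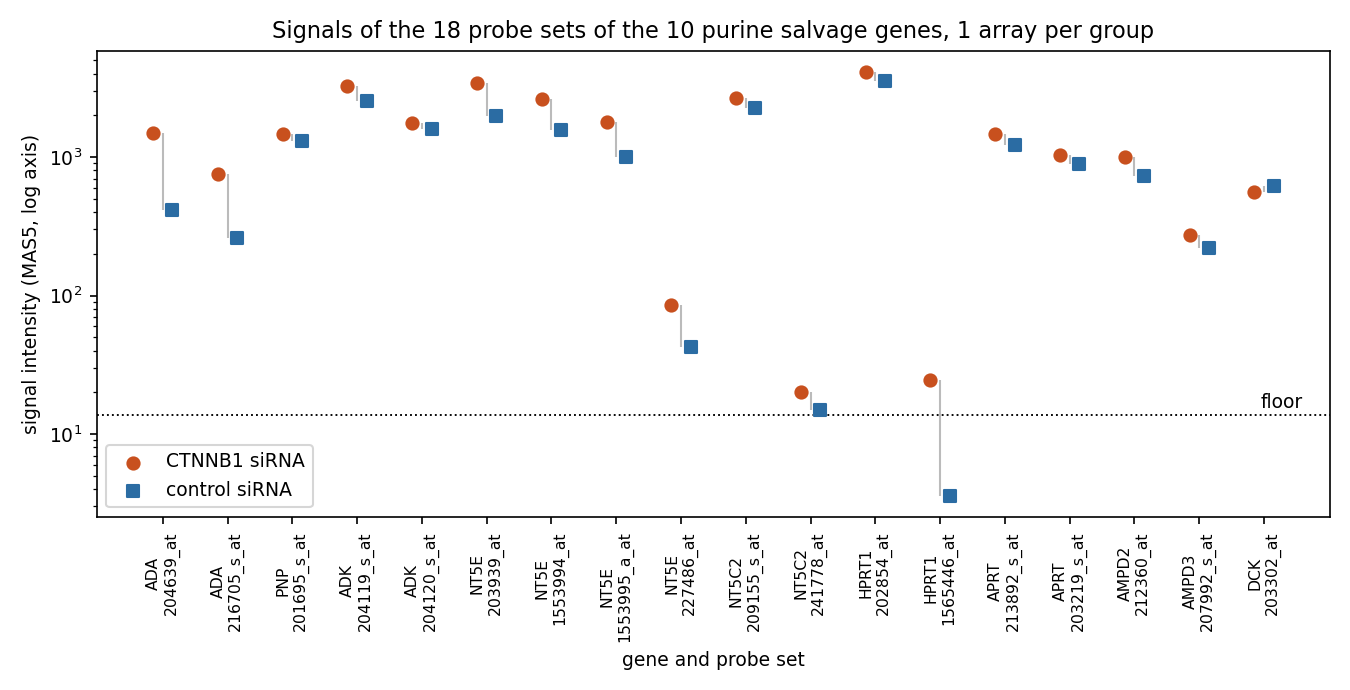
Signal intensity on a log axis of each of the 18 member probe sets with CTNNB1 siRNA (circles) and control siRNA (squares), 1 array per group, with the grey line joining the 2 arrays and the dotted line at the floor of 13.8. Both ADA probe sets and all 4 NT5E probe sets lay higher with CTNNB1 siRNA, and the pairs of the remaining bright probe sets lay close together.

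ADA, the deaminase that gives the set its name, was the only member past a 2-fold difference. The brighter of its probe sets read 1481 with CTNNB1 siRNA and 415 with control siRNA, a 3.57-fold difference and a log2 ratio of 1.84. The dimmer one read 759 with CTNNB1 siRNA and 261 with control siRNA, a log2 ratio of 1.54. The log2 ratios of the probe sets lay 0.30 apart, against a probe set SD of 0.42, or 0.29 among bright probe sets. Both probe sets read the same RNA on the same arrays, so they are not replicates. In rank within its own array, a measure that does not depend on scaling by a constant, the brighter probe set stood at the 93.3 percentile of all probe sets with CTNNB1 siRNA and at the 83.4 percentile with control siRNA.

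Among all genes, 287 of 12531 (2.29%) were at least 2-fold higher and 298 (2.38%) at least 2-fold lower with CTNNB1 siRNA. ADA ranked 28 from the top of the 12531 genes and 3 of the 1253 genes in its signal decile, the third brightest. Of the 10 members, 1 was at least 2-fold higher and 0 were at least 2-fold lower. Since the choice of the set rested on ADA, that count is no evidence about the other genes. The array measures the whole culture, so a higher level in all cells and a higher level in some of them cannot be told apart.

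**Figure D2:**
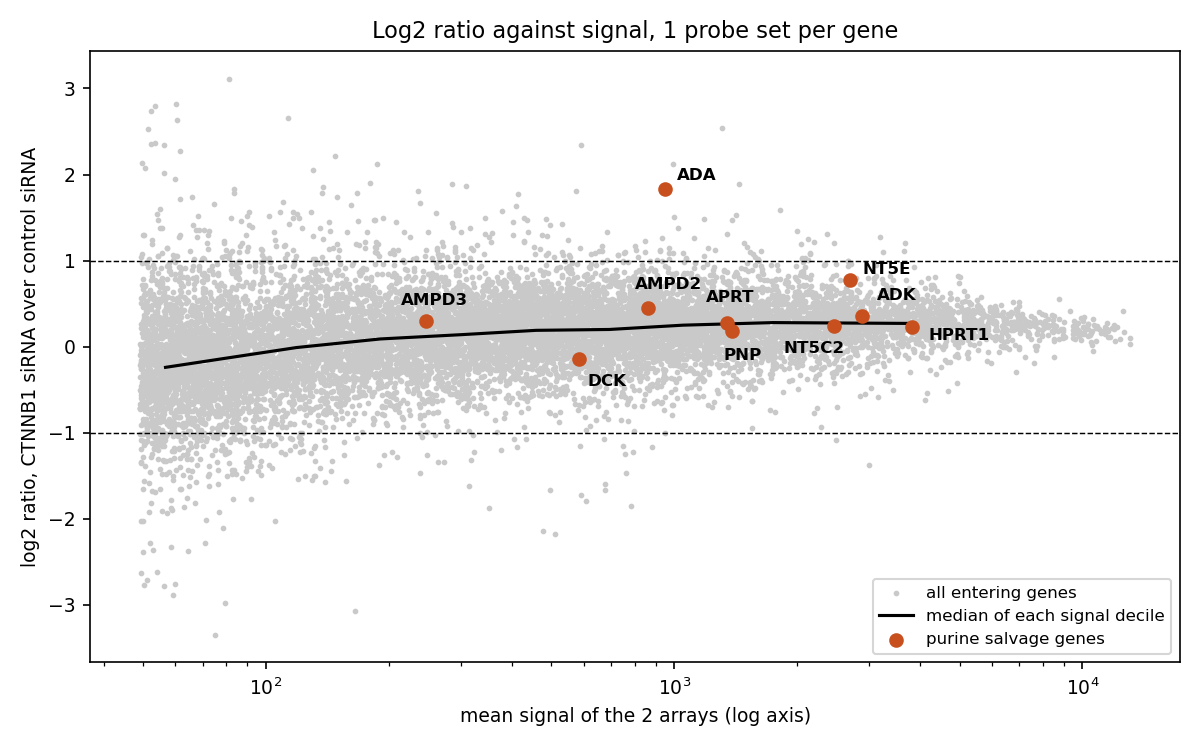
Log2 ratio of CTNNB1 siRNA over control siRNA against the mean signal of the 2 arrays on a log axis, with 1 point per gene for 12531 genes, the 10 members in colour, the median of each signal decile as a line and dashed lines at 2-fold. ADA lay at 1.84 and NT5E at 0.77, and the other 8 members lay within -0.15 to 0.45.

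NT5E, the cell-surface enzyme that forms adenosine, was next in order and stayed under 2-fold at the probe set that stands for the gene. Its 3 bright probe sets had signals of 3409, 2641 and 1804 with CTNNB1 siRNA, against 1995, 1557 and 998 with control siRNA. These were 171%, 170% and 181% of control. The dimmest probe set read 85.5 with CTNNB1 siRNA and 42.2 with control siRNA, 203% of control and just past 2-fold. Its control signal lay under the cut of the signal filter, which is on the mean of both arrays. It therefore passed only through the array where it was high. The log2 ratios of the 4 probe sets spanned 0.76 to 1.02, a spread of 0.26 that was smaller than the probe set SD. The 1.02 came from that dim probe set, and the 3 bright probe sets had log2 ratios of 0.77, 0.76 and 0.85. NT5E ranked 674 of 12531 genes, and 28 of the 1254 genes in the brightest decile, whose median log2 ratio was 0.27. The gene-level log2 ratio of ADA exceeded that of NT5E by 1.06.

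The competing and following steps of the adenosine branch differed little between the arrays. ADK, which phosphorylates adenosine, had signals of 3240 and 1766 in its 2 probe sets with CTNNB1 siRNA, against 2538 and 1599 with control siRNA. Its log2 ratios were 0.35 and 0.14. PNP, which acts on the inosine that ADA forms, had 1475 with CTNNB1 siRNA and 1300 with control siRNA, a log2 ratio of 0.18. The gene-level log2 ratio of ADA exceeded that of ADK by 1.48 and that of PNP by 1.65.

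HPRT1 and APRT, the phosphoribosyltransferases that salvage hypoxanthine with guanine and adenine, were bright and close to the general shift. HPRT1 had a signal of 4117 with CTNNB1 siRNA and 3526 with control siRNA, a log2 ratio of 0.22. The probe sets of APRT had 1475 and 1036 with CTNNB1 siRNA, against 1219 and 888 with control siRNA, for log2 ratios of 0.28 and 0.22. A dim HPRT1 probe set read 24.4 with CTNNB1 siRNA and 3.6 with control siRNA. It did not pass the signal filter, and its control value lay under the floor.

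The AMP deaminases AMPD2 and AMPD3 convert AMP to IMP inside the cell. AMPD2 had a signal of 994 with CTNNB1 siRNA and 729 with control siRNA, a log2 ratio of 0.45, the highest of the set after ADA and NT5E. AMPD3 was the dimmest member, with 272 with CTNNB1 siRNA and 222 with control siRNA and a log2 ratio of 0.30. The ratios of the AMP deaminases differed by 0.15, less than the probe set SD. NT5C2, a cytosolic nucleotidase that acts mainly on IMP and GMP, had 2663 with CTNNB1 siRNA and 2260 with control siRNA, a log2 ratio of 0.24. Its dim second probe set (20.1 with CTNNB1 siRNA and 15 with control siRNA) did not pass the filter.

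DCK, the kinase that salvages deoxycytidine and also accepts deoxyadenosine and deoxyguanosine, was the only member with a negative log2 ratio. Its signal was 555 with CTNNB1 siRNA and 614 with control siRNA, 90.4% of control and a log2 ratio of -0.15, within the probe set SD. It lay 0.35 below the median of its signal decile. DCK stayed below 0 under all 11 alternative ways of processing, from -0.37 to -0.01.

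All 10 genes and 16 of the 18 probe sets passed the signal filter. Of the 10, 9 had a log2 ratio above 0, as did 64% of all genes and 84% of genes in the 3 brightest deciles. The median log2 ratio of the 10 members was 0.29, and it was 0.26 for the 8 members other than ADA and NT5E, against 0.15 over all genes and 0.26 over the 3 brightest deciles. Relative to the median of its own signal decile, 5 members were higher and 5 were lower. PNP, NT5C2 and HPRT1 turned slightly negative, between -0.09 and -0.03, after quantile normalization and after loess, and PNP read -0.03 with a common trimmed mean, so no direction is given for them.

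**Figure D3:**
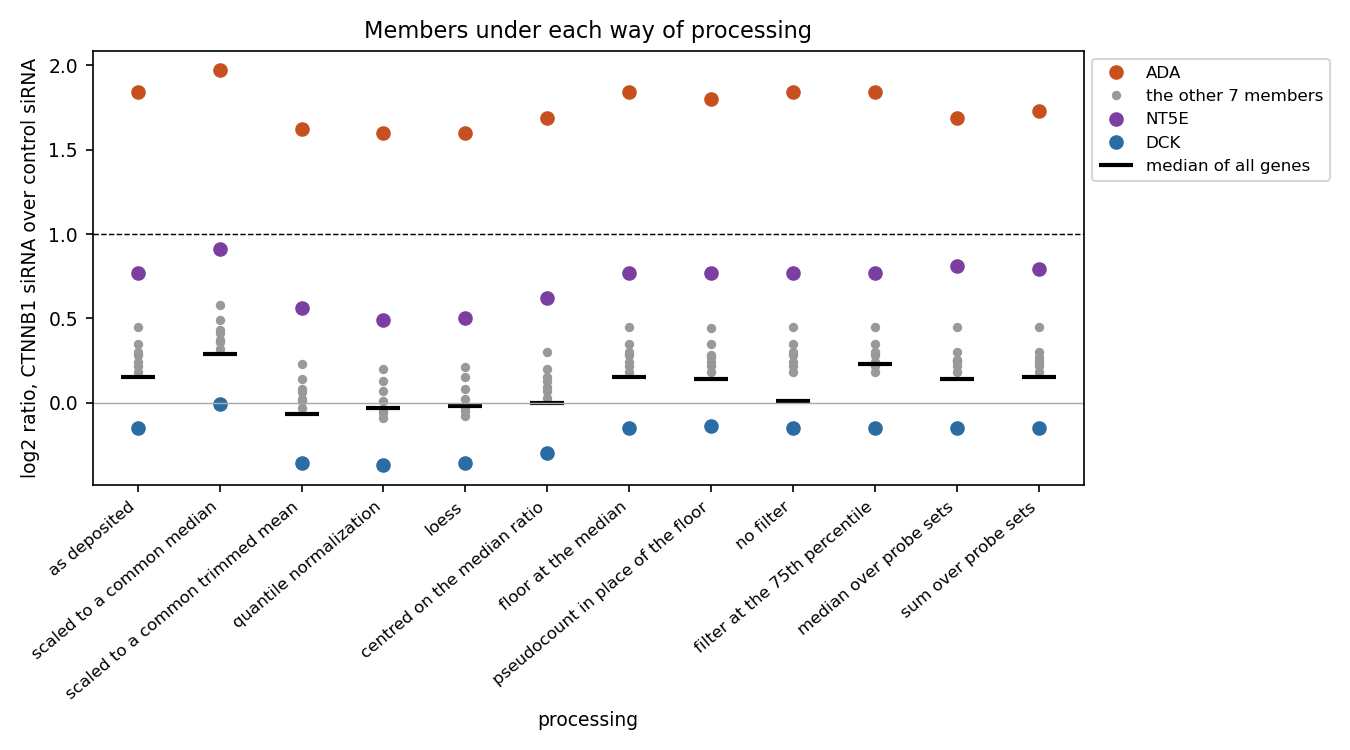
Log2 ratio of CTNNB1 siRNA over control siRNA for the 10 members as deposited and under 11 alternative ways of processing, with black bars for the median of all genes and a dashed line at 2-fold. ADA stayed between 1.60 and 1.97 and NT5E between 0.49 and 0.91, and the other members stayed under 2-fold throughout.

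The genes around the members in purine and nucleoside metabolism were followed in 8 lists with 87 genes, of which 65 passed the filter. Of these 65 genes, 2 were at least 2-fold higher and 1 was at least 2-fold lower, against 2.29% and 2.38% of all genes. So few calls cannot be set apart from those shares. The median log2 ratio of the 65 genes was 0.21 against 0.15 over all genes. All 3 called genes lay in the dimmest decile, where ratios scatter most, and none of the 3 passed 2-fold with the floor at the median. The filter is on the mean of the 2 arrays, and each of the 3 had its lower signal under the cut of 49.1. Each therefore entered only through the array where it was high. NT5M, a mitochondrial deoxynucleotidase gene, had a signal of 80.6 with CTNNB1 siRNA and 27.8 with control siRNA, 2.9-fold higher. SLC29A3, an equilibrative nucleoside transporter gene of lysosomes and mitochondria, had 73.5 and 35.5, 2.07-fold higher, and fell under 2-fold in 4 alternatives.

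Among the adenosine receptor genes, ADORA3 was 2.74-fold lower, with a signal of 27.8 with CTNNB1 siRNA and 76.1 with control siRNA. Its other probe set read 3.8 and 4, both under the floor. ADORA2B, a receptor of low affinity for adenosine, was the brightest receptor probe set and had 787 with CTNNB1 siRNA and 654 with control siRNA, a log2 ratio of 0.27. ADORA1 read 88.7 and 112, a log2 ratio of -0.33.

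Of the nucleoside transporter genes, 4 of 7 passed the filter. SLC29A1, which encodes the main equilibrative transporter of the plasma membrane, had a signal of 670 with CTNNB1 siRNA and 423 with control siRNA, a log2 ratio of 0.66, and its other probe set read 0.50. SLC29A2 had 203 with CTNNB1 siRNA and 252 with control siRNA, and all 3 of its entering probe sets lay below 0, from -0.62 to -0.31. DPP4, whose protein anchors ADA on the surface of human cells, was under the filter in its 3 probe sets, the brightest reading 24.7 with CTNNB1 siRNA and 20.3 with control siRNA. ADA2, the gene of the secreted adenosine deaminase, read 5.9 and 10.1, both under the floor.

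The cell-surface and secreted nucleotide enzymes had a median log2 ratio of -0.03 over 9 entering genes, with 0 past 2-fold in either direction. Most of these genes were dim, and over all genes the dimmest and next dimmest deciles had medians of -0.24 and -0.14. ENPP3 (-0.69), ENTPD1 (0.45), which encodes CD39, and ENTPD3 (0.37) had the largest log2 ratios in size, all among dim probe sets. Each of these genes also had a probe set under the filter with a log2 ratio of the opposite sign. The other nucleotidases had a median of 0.39 over 8 genes. NT5C1A read 43.3 with CTNNB1 siRNA and 85.6 with control siRNA, a log2 ratio of -0.98, and NT5C3A, a nucleotidase of pyrimidine monophosphates, read 1526 and 1041, a log2 ratio of 0.55.

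The remaining lists showed 0 genes past 2-fold. De novo purine synthesis had a median of 0.24 over 8 genes, and its largest log2 ratios were those of PPAT (0.62), the amidotransferase of the committed step, PRPS1 (0.53) and ATIC (0.44). The guanine branch had a median of 0.27 over 7 genes, with IMPDH1 at 0.74, GDA at 0.56 and GMPS at 0.43, although the probe sets of GDA and GMPS disagreed in sign. XDH, the oxidase of hypoxanthine and xanthine, had a log2 ratio of -0.09 at its brightest probe set and -1.15 at the other. Other adenosine, AMP and methyl cycle enzymes had a median of 0.18 over 10 genes, led by ADSS1 (0.74), AHCYL1 (0.64) and ADSL (0.22). AHCYL1 read -0.50 in its lowest probe set, and ADSL read -0.07 in its other probe set. Pyrimidine salvage and deoxynucleotide enzymes had a median of 0.21 over 17 genes, led by SAMHD1 (0.78), which degrades deoxynucleotides, DCTD (0.59) and RRM1 (0.47). DCTD read -0.06 in another bright probe set.

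**Figure D4:**
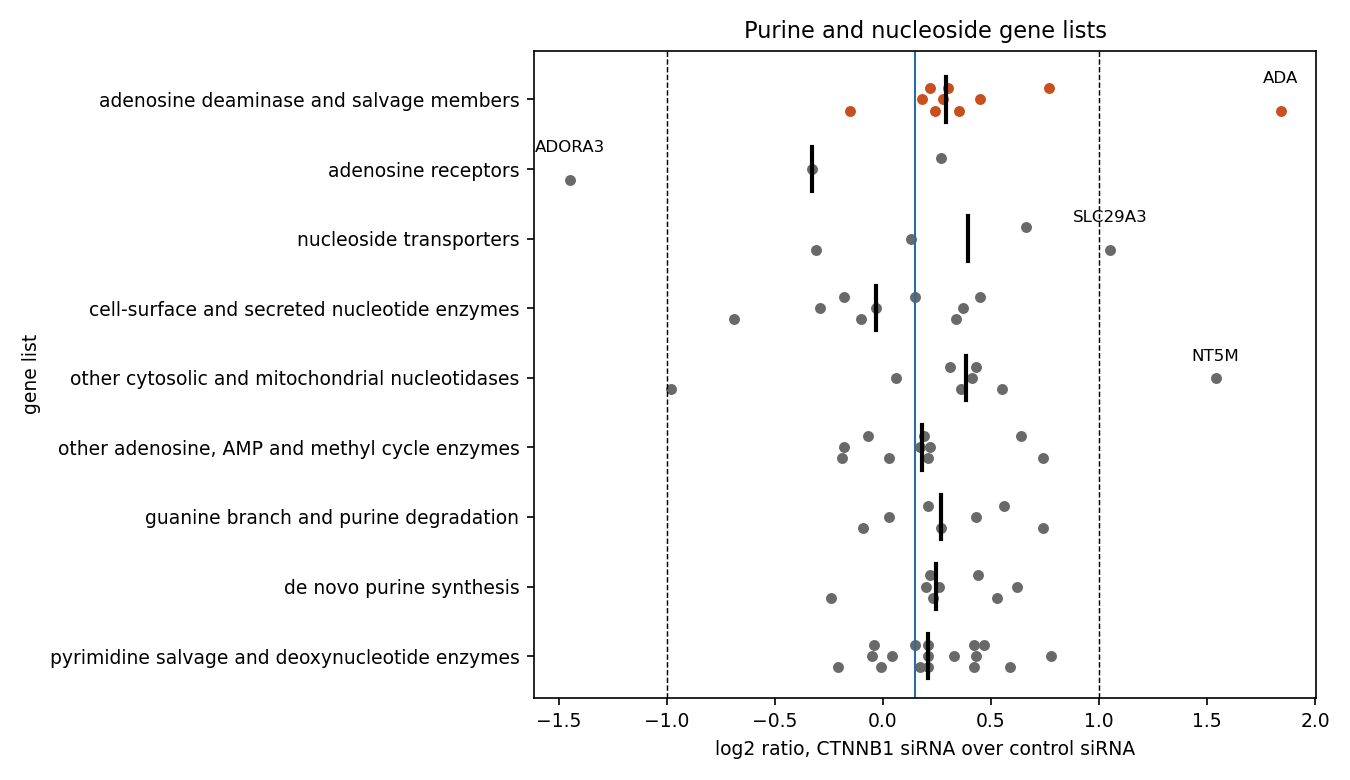
Log2 ratio of CTNNB1 siRNA over control siRNA of each entering gene in the 10 members (top row) and in 8 purine and nucleoside lists, with 1 point per gene, a black bar at each list's median, the blue line at the median of all genes (0.15) and dashed lines at 2-fold. ADA, NT5M, SLC29A3 and ADORA3 lay outside the 2-fold lines.

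The genes whose signals on the 2 arrays lay nearest to those of ADA were LMNB1, MFGE8, AIFM1 and CLDN1, by Euclidean distance of log2 signals over 2 arrays. Their distances were 0.21, 0.33, 0.43 and 0.44. LMNB1, which encodes lamin B1, had a signal of 1620 with CTNNB1 siRNA and 372 with control siRNA, and the tight junction gene CLDN1 had 1314 and 548. MFGE8 had 1475 and 520 in its brightest probe set, but its other probe set had a log2 ratio of 0.11. AIFM1 had 1189 and 510, a log2 ratio of 1.22. Probe set signals depend on the probes as well as the transcripts, so this closeness is one of measured signal.

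In RefSeq's order of protein-coding genes, ADA lies between PKIG and CCN5. CCN5 had a signal of 283 with CTNNB1 siRNA and 75.8 with control siRNA in its single probe set, a 3.73-fold difference. Across the 5 neighbours on each side of all 10 members, 63 entering genes had a median log2 ratio of 0.12. Of these, 2 were at least 2-fold higher, CCN5 and PLAU near ADK, and 0 were at least 2-fold lower. The shares over all genes were 2.29% and 2.38%, and these calls are too few to be set apart from them. ADM, next to AMPD3, read 3556 with CTNNB1 siRNA and 1779 with control siRNA, just under 2-fold. Among the 5 entering neighbours of NT5E, 0 passed 2-fold. SYNCRIP came closest, with 3568 with CTNNB1 siRNA and 1840 with control siRNA and log2 ratios from -0.50 to 0.96 over its 7 probe sets, and its gene-level log2 ratio was 1.09, past 2-fold, after scaling to a common median. These neighbours were chosen after the values were seen.

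**Figure D5:**
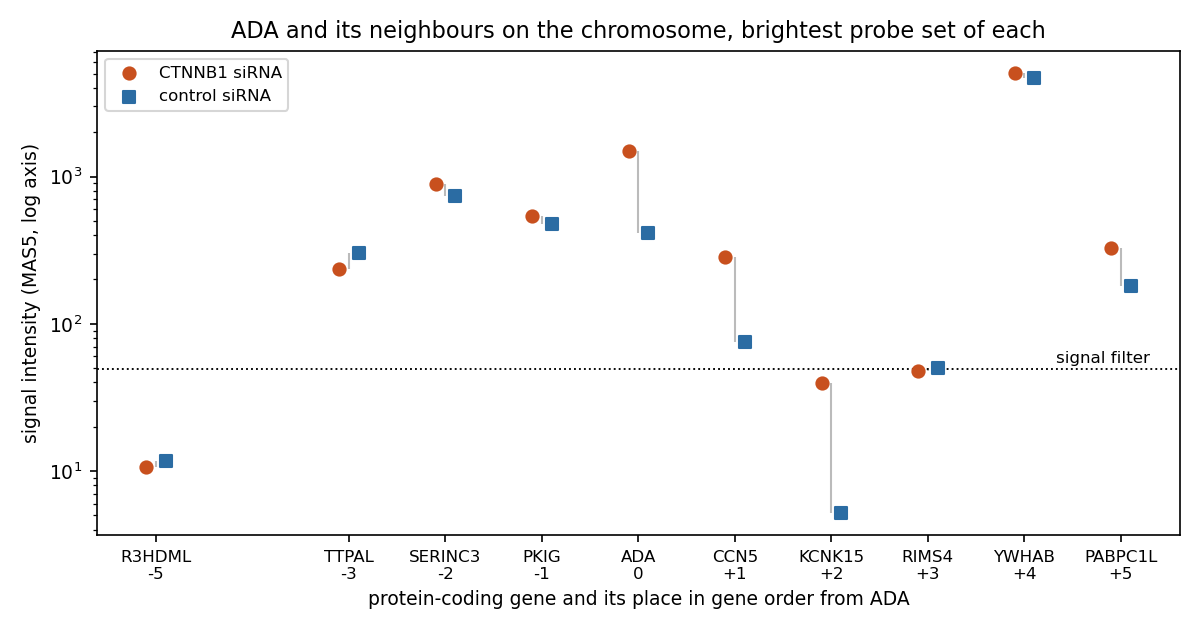
Signal intensity on a log axis of ADA and of the protein-coding neighbours that have a probe set, in gene order, with CTNNB1 siRNA (circles) and control siRNA (squares), 1 array per group and the dotted line at the signal filter of 49.1. At the brightest probe set of each gene, ADA and the adjacent CCN5 were the genes above the filter on both arrays with a difference past 2-fold.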

How the data were processed

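The deposited table held 1 linear signal intensity per probe set and array, made by the authors with MAS5, per the submitters' processing notes. Which version, target intensity and scaling were used is not given in the sources used here, and no detection calls were used.

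GEO's platform annotation gave the gene symbols. Members were found by its symbol alone, and 1 probe set shared by AMPD3 and another gene was left out. Other symbols were updated through Entrez numbers to RefSeq, with a match for 41043 of 41097. Log2 ratios were taken with no further normalization. Signals under the 25th percentile, 13.8, were set to that floor; it is no detection limit. Probe sets whose 2 signals averaged at least the median of all values, 49.1, were kept (called entering), and the brightest of these stood for its gene. Genes were called by a 2-fold rule of size. With 1 array per group no test was possible, and the number of arrays limits the precision. The calculations were tested on simulated data, with known changes put into bright genes only. The simulation held no shift that grows with signal and no variation between cultures.

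The members and lists were chosen with earlier results of these data known. Named were all members, CTNNB1, up to 3 genes of each list by size of ratio plus those past 2-fold, and the 4 genes nearest to ADA. DPP4, ADA2, XDH and the chromosomal neighbours were named outside this rule, after their values were seen. The letters searched in promoters were also chosen with those results known. Alternatives were scaling to a common median or 2% trimmed mean, quantile normalization, loess, centring, another floor, a pseudocount of 16, other filters, and the median or sum over probe sets. Python 3.11.15 with pandas 2.3.3 and statsmodels 0.14.6 was used.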

Additional observations from a re-analysis of the deposited data

How the results depend on the processing

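ADA stayed at least 2-fold higher under all 11 alternatives, with log2 ratios from 1.60 (quantile normalization and loess) to 1.97 (scaling to a common median), and the counts of members past 2-fold did not move. The median of the members ran from 0.04 to 0.42. The count of pathway genes at least 2-fold higher was 2 as deposited. It was 1 with a common trimmed mean, with centring and with the pseudocount, 3 with no filter, and 0 with the floor at the median and with the filter at the 75th percentile. The count of pathway genes at least 2-fold lower was 1 as deposited. It was 2 with a common trimmed mean, with centring and with no filter, and 0 with the floor at the median and with the filter at the 75th percentile. The median of the adenosine receptors was -0.33 as deposited and 0.27 with the 75th percentile filter, which left out the dim receptors. After quantile normalization and loess the medians of de novo synthesis were -0.03 and -0.02, of pyrimidine salvage -0.06 and -0.05 and of other adenosine enzymes -0.10 and -0.09, each above 0 as deposited. The guanine branch read 0.03 with the median over probe sets, against 0.27 as deposited. The median of all genes was itself -0.03 after quantile normalization and -0.02 after loess, against 0.15 as deposited. The cause of these moves was not tested. The CTNNB1 log2 ratio was -0.97 with the median over its probe sets. AIFM1 read 0.99 after quantile normalization and after loess, and MFGE8 0.81 with the median over probe sets. CCN5 ran from 1.69 to 2.04 in the 10 alternatives in which it entered. Across all genes, lower genes made up 50.9% of 2-fold calls as deposited, 27.9% with a common median, 80.9% with a common trimmed mean and 73.3% with centring. No paired analysis was possible because each group had 1 array. Dim probe sets limit the statements on receptors, transporters and the dim second probe sets of HPRT1 and NT5C2.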

Other observations

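The gene next to ADA on the chromosome was higher as well. CCN5, a matricellular protein gene, is the adjacent protein-coding gene in RefSeq's order on chromosome 20. Its signal was 283 with CTNNB1 siRNA and 75.8 with control siRNA, 3.73-fold higher, in its 1 probe set. This neighbourhood was looked at after the values were seen. Of the 5 protein-coding genes on each side of ADA, 6 passed the signal filter, and CCN5 was the only one of these past 2-fold at the brightest probe set. Over all genes, 2.29% were at least 2-fold higher. The probe sets of TTPAL disagreed, with 235 with CTNNB1 siRNA and 302 with control siRNA at the brighter, a log2 ratio of -0.36, and 167 and 62.7 at the dimmer, 2.67-fold higher. PKIG, on the other side of ADA, had 538 with CTNNB1 siRNA and 473 with control siRNA, and SERINC3 had 886 and 740. PABPC1L had 328 and 181 in its brightest probe set, a log2 ratio of 0.86, but -0.19 in its second. KCNK15, which follows CCN5, lay under the filter, with 39.5 and 5.2 in one probe set and 7.7 and 3.4, both under the floor, in the other.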
